A study of Mus musculus with 15 samples.

Results

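The pancreas of transgenic (TG) mice was compared with that of wild type (WT) mice 3 h after a single injection of cerulein, using the 8 arrays that the labels place in these groups out of 15 arrays in the series: 4 TG cerulein and 4 WT cerulein. All mice were C57BL/6J males that had fasted for 18 h and then received 50 µg/kg cerulein intraperitoneally. Of the other arrays, 3 TG and 4 WT mice had received saline alone. They carry a time label of 0 h, although the protocol has saline mice killed 3 h after injection as well. These saline arrays entered the statistical model too, where they helped to estimate the spread and the slide effects. Each array carries Cy3-labelled RNA from the whole pancreas of 1 mouse, and arrays are named below by the animal number in the labels. The labels mark the animals only as transgenic. The series title points to betacellulin, but the transgene, its promoter, the cells that express it, the number of founder lines and the ages of the mice are not given in the sources used here.

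Cerulein is a stable analogue of cholecystokinin that overstimulates acinar cells, the enzyme-producing cells of the exocrine pancreas, and sets off a mild acute pancreatitis. Betacellulin (Btc) is a growth factor of the EGF family that binds the receptor tyrosine kinases EGFR and ERBB4. Pancreatic stellate cells are the main source of fibrillar collagen in this organ, and hepatocytes are the main source of albumin and most other plasma proteins.

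Values are log2 spot signals minus the 75th percentile of their array, so that 0 marks a probe at that percentile. The share of probes well above background was 63.8% to 74.7% for the TG cerulein arrays and 65.1% to 76.0% for the WT cerulein arrays. The arrays lay on 3 slides: 2 TG and 1 WT on slide 1, 1 TG and 2 WT on slide 2, and 1 of each on slide 3. Slide 2 held no saline array. In a principal component analysis of the 8 arrays, the first component held 53.6% of the variance. Taken alone, slide accounted for 94.9% of that component and genotype for 13.5%. These shares overlap, because the genotypes lay unevenly on the slides. Over all genes, whose values are not independent, the median Pearson correlation was 0.966 for 5 pairs of unlike genotype from 1 slide and 0.954 for 10 pairs of like genotype from different slides. The slide was therefore a term of the model. Digestive enzymes and other acinar products marked all 8 arrays as pancreas: the 29 measured members had a mean log2 signal of 9.38 to 10.39 on TG and 9.70 to 10.81 on WT arrays.

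After cerulein, transgenic pancreas carried more messenger RNA of several plasma proteins, collagens, matrix proteases and mesenchymal genes than wild type pancreas. At an adjusted p below 0.05 in limma, 89 of 17338 genes were higher in TG mice (0.513%) and 25 were lower (0.144%), 114 in all (0.658%). Of these, 62 of the higher and 10 of the lower genes differed at least 2-fold. Every one of the 114 had the same sign of difference within each of the 3 slides, as did 33.8% of all genes tested. The 4 TG values lay above all 4 WT values for 75 of the 89 higher genes, and below them for 15 of the 25 lower genes. Among all genes, 1.57% lay wholly above and 0.94% wholly below. The calls were made on these same arrays with slide in the model, so agreement across slides and separation are not independent support. In bulk tissue, more cells of a type and more RNA per cell cannot be told apart.

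The number of calls depended on the slide term, on the saline arrays in the model and on single arrays. Without the slide term 24 genes were higher (0.138%) and 1 lower (0.00577%), and all 25 were among the 114. A fit to the 8 cerulein arrays alone called 5 genes higher and 0 lower, with 837 and 896 at an unadjusted p below 0.05 in limma. The higher and lower counts were 11 and 5 without TG cerulein 16, 17 and 0 without WT cerulein 10, 38 and 4 without TG cerulein 15, 58 and 9 without TG cerulein 14, 60 and 9 without WT cerulein 12, 143 and 19 without WT cerulein 9, and 185 and 39 without TG cerulein 13. Without slide 2 they were 11 and 1, and without slide 3, which left 8 arrays of the 15, limma called 0 and 0, with 403 and 421 genes at an unadjusted p below 0.05. TG cerulein 16 was the only TG array on slide 2. Without it, WT cerulein 11 and 12 told nothing of the genotype difference, because slide 2 held no saline array. Leaving out TG cerulein 16 thus acts much like leaving out slide 2, and calls lost that way cannot be laid to that 1 mouse. Of the 114, 10 stayed called in each of the 8 fits that left out 1 array: Alb, Ccn2, Fetub, Lamc3, Mgp, Mmp2, Penk, Serpina6, Srpx and Srrm4.

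**Figure D1:**
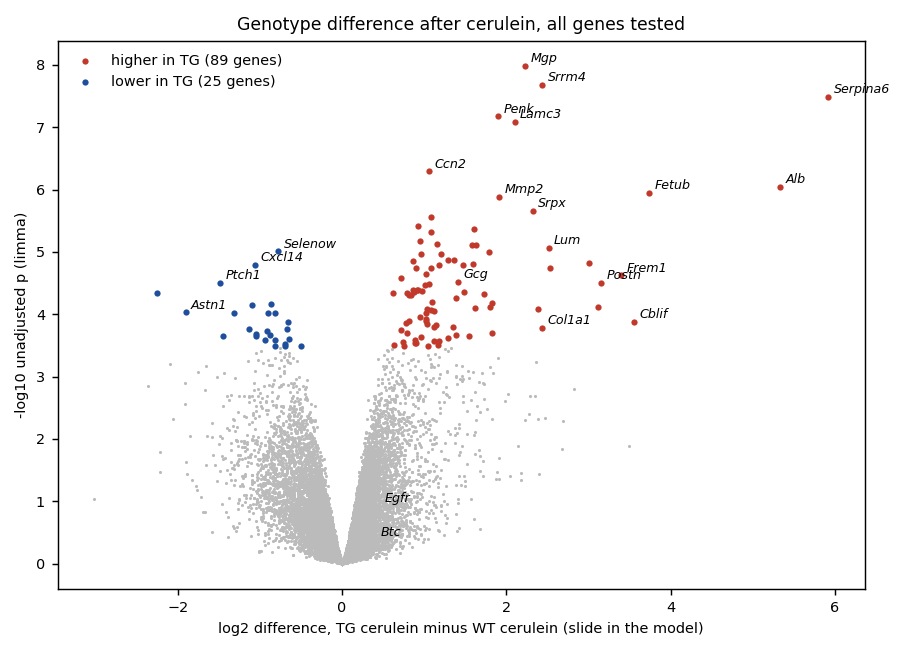
Each point is 1 of 17338 genes. The horizontal axis gives the log2 difference between TG and WT after cerulein with slide in the model, and the vertical axis the -log10 unadjusted p from limma. Red points are the 89 genes called higher and blue points the 25 called lower. The largest differences, Serpina6, Alb and Fetub, lie to the right of all others, while Btc and Egfr lie among the grey points.

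Plasma protein genes gave the 3 largest increases. Serpina6 encodes corticosteroid-binding globulin, the carrier of glucocorticoids in blood, and was not on the list of plasma protein genes described below. Its log2 signal was 7.25, 7.96, 8.68 and 7.25 on the TG cerulein arrays 13, 14, 15 and 16, and 1.85, 2.04, 2.48 and 0.96 on the WT cerulein arrays 9, 10, 11 and 12. All TG arrays lay far above all WT arrays, and TG exceeded WT by 5.92 ± 0.45 (SE), or 60.4-fold (limma adjusted p = 0.000188). A second probe of the gene differed by 6.15.

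Alb, the gene of serum albumin, read 4.38, 2.72, 3.49 and 3.39 on the TG arrays and -2.10, -2.03, -0.01 and -2.58 on the WT arrays in the same order. The groups did not overlap, although WT cerulein 11 stood above the other 3 WT arrays. That array also read highest of its group for the liver genes Mup3 (-0.26) and Fgb (-1.79), and TG cerulein 16 highest of the TG arrays (-1.14 and -2.22). The difference was 5.33 ± 0.55 (40.3-fold, limma adjusted p = 0.00226), and 5.66, 4.68 and 5.52 within slides 1, 2 and 3. Fetub, which encodes the secreted protease inhibitor fetuin-B, read 3.76, 4.53, 4.68 and 4.14 on the TG arrays and 0.44, 0.80, 0.17 and 0.84 on the WT arrays. Again no arrays overlapped, and the difference was 3.74 ± 0.40 (13.3-fold, limma adjusted p = 0.00245).

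The list of plasma protein genes had 28 measured members, of which 5 were higher in TG mice (against 0.513% of all genes) and 0 lower (against 0.144%). Besides Alb and Fetub these were Gc, the vitamin D-binding protein (1.73 ± 0.27), Ambp, the precursor of alpha-1-microglobulin and bikunin (1.35 ± 0.24), and F2, prothrombin (1.02 ± 0.18). The last 3 were named after their values were seen, and without the slide term their limma adjusted p was 0.0758, 0.205 and 0.238. Gc was also lost without TG cerulein 15, TG cerulein 16 or WT cerulein 10, and Ambp and F2 without any of 5 and 6 arrays, these 3 included. The other 23 members did not pass. Among them Ahsg, fetuin-A, stood at 2.14 ± 0.73, Rbp4, the retinol carrier, at 1.71 ± 0.40 and Ttr, transthyretin, at 1.04 ± 0.32, whereas Apoa2 stood at -0.18 ± 0.11 and Fga, a fibrinogen chain, at -0.73 ± 0.27. The median over the list was 0.21, against 0.04 over all genes. Of the apolipoprotein genes, abundant in liver, Apoa1 stood at 1.01 ± 0.90 and Apoc3 at -0.34 ± 0.55. For Apoa1 1 array stood apart, TG cerulein 14 at 0.13, against -4.12 to -3.03 on the other TG arrays. On the same array the intestinal genes Fabp1 and Fabp2, of fatty acid binding proteins, read 3.65 and 3.27, against -6.25 to -2.998 and -2.42 to 0.04 on the other TG arrays. Of the 11 intestinal epithelium markers tested, 0 were called, against 0.658% of all genes. Their mean log2 signal was 1.42 on TG cerulein 14, the highest of the TG range from -2.72, and -2.50 to -1.36 on WT arrays. The calls of Serpina6, Alb and Fetub were kept without TG cerulein 14, without TG cerulein 16 and without WT cerulein 11. Leaving out 1 array cannot show RNA of another tissue that is spread over several arrays of a group. The mean log2 signal of the list was -0.56 to 0.28 on TG and -1.18 to -0.28 on WT arrays. The part of liver or intestinal RNA in any of these values, those of Serpina6, Alb and Fetub included, was not tested.

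The stretches upstream of Alb, Gc and Fetub are shown because these are the called plasma protein genes with the largest differences that have an entry in the RefSeq promoter table (GRCm38.p6), and because hepatic promoters of this class are known for sites of the transcription factor HNF1. Each sequence covers the 250 bases before the gene start on the coding strand, 5′ to 3′. Capitals mark GTTAAT, one arm of the palindromic HNF1 consensus, searched on both strands without overlap with any other motif. Alb lies at chr5:90460620-90460869 on the plus strand, Gc at chr5:89457899-89458148 on the minus strand, and Fetub at chr16:22918132-22918381 on the plus strand, the first of 2 entries for that gene.
Alb: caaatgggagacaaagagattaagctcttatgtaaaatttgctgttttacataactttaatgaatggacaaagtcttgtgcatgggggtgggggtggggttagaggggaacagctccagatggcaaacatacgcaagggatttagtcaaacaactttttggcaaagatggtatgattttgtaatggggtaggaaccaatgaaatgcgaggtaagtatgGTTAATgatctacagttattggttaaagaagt
Gc: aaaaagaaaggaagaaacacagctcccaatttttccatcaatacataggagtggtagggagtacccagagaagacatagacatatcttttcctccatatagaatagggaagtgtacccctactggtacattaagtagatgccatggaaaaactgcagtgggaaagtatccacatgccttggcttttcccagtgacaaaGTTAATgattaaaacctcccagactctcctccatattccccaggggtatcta
Fetub: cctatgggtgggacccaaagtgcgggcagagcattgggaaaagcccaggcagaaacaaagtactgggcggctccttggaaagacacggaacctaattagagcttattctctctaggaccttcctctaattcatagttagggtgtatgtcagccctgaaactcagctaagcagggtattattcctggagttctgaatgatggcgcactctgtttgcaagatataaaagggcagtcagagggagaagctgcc
Counted from the gene start, 1 match begins at -32 in Alb and 1 at -52 in Gc, while the Fetub, Ambp and F2 stretches hold 0. The letters occur in 6.5% of all 27025 genes with an entry, in 4.9% of those tested here, in 3 of the 67 genes called higher that have one, and in 2 of the 21 called lower. Of the 114 called genes, 88 have an entry. The matches describe the sequence only.

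**Figure D2:**
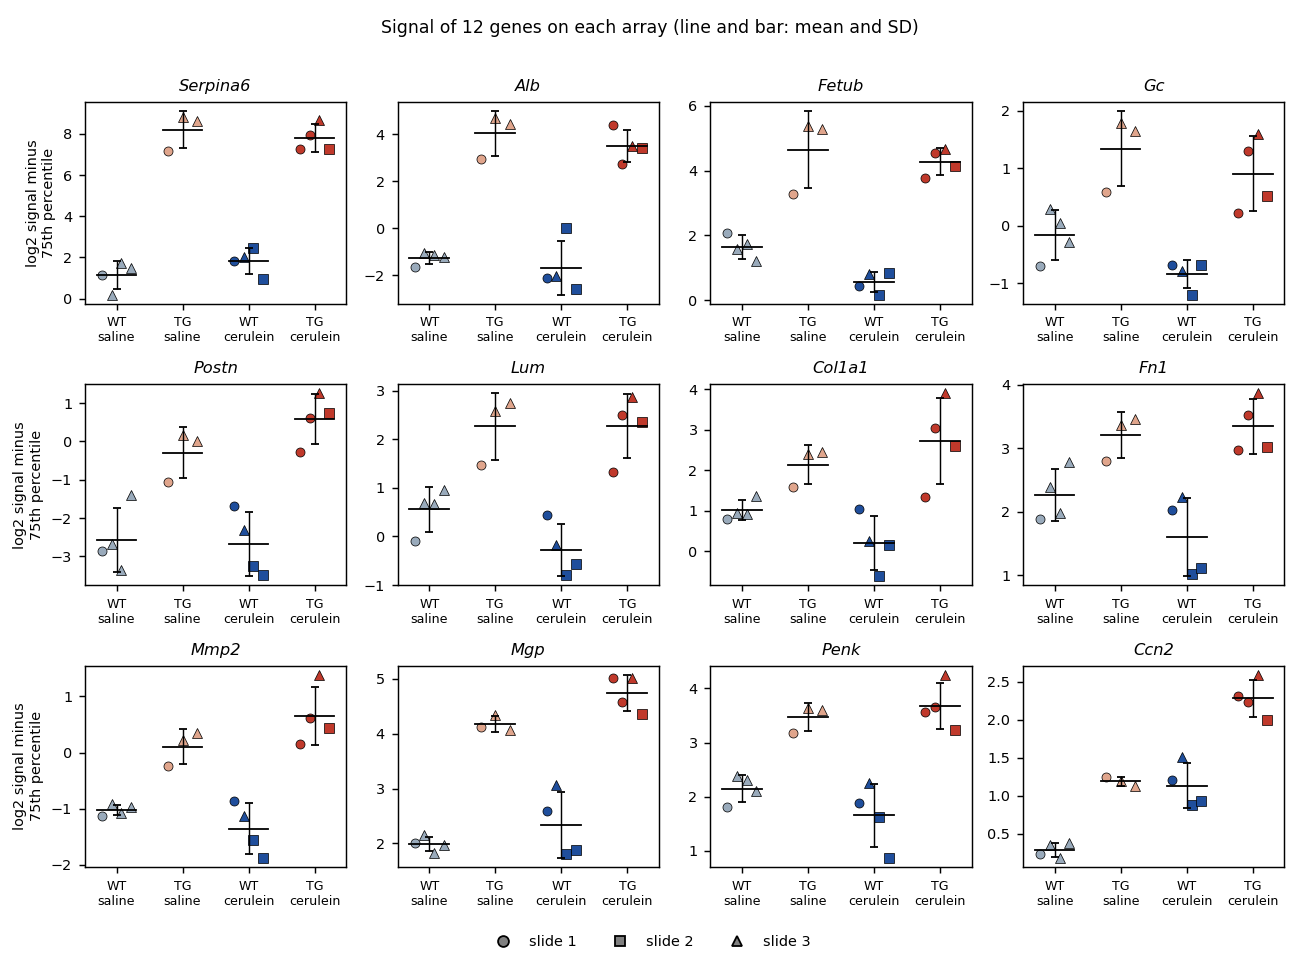
Log2 signal minus the 75th percentile of the array for 12 genes in the 4 groups, with 1 symbol per array. Circles, squares and triangles mark slides 1, 2 and 3, and the line and bar give the group mean and SD. In all 12 panels the 4 TG cerulein symbols lie above the 4 WT cerulein symbols, and for Serpina6, Alb and Fetub the TG saline symbols are also far above the WT saline symbols.

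Collagens and other matrix genes formed the list with the largest median difference of the 36 lists. Of 30 measured members, 7 were higher in TG mice (against 0.513% of all genes) and 0 lower (against 0.144%). A difference above 0 was seen for 28, and 10 had TG values wholly above WT values (against 1.57% of all genes). The median was 0.93, against 0.04 over all genes. It was unequal across slides, at 0.34 within slide 1, 1.28 within slide 2 and 1.63 within slide 3.

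Postn encodes periostin, a matricellular protein of remodelling connective tissue. Its log2 signal was -0.29, 0.62, 1.26 and 0.73 on TG cerulein 13 to 16, and -1.67, -2.30, -3.26 and -3.47 on WT cerulein 9 to 12. TG was higher throughout, by 3.15 ± 0.47 or 8.88-fold (limma adjusted p = 0.0135). Lum, lumican, a proteoglycan that binds collagen fibrils, read 1.33, 2.50, 2.87 and 2.35 on the TG arrays and 0.43, -0.17, -0.80 and -0.57 on the WT arrays. The groups did not overlap, TG cerulein 13 was the lowest of its group, and the difference was 2.51 ± 0.33 (5.71-fold, limma adjusted p = 0.00785).

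Of the other 5 called members, named after their values were seen, 2 are the chains of type I collagen, the main fibrillar collagen. Col1a1 read 1.34, 3.04, 3.91 and 2.61 on the TG arrays and 1.04, 0.26, -0.61 and 0.17 on the WT arrays. The groups were apart, but by a narrow margin on slide 1, where the difference was 1.15 against 2.83 and 3.65 on slides 2 and 3. In the model it was 2.44 ± 0.44 (5.42-fold, limma adjusted p = 0.0342), and that of Col1a2 was 1.83 ± 0.30 (3.55-fold). Col3a1, of type III collagen, stood at 2.02 ± 0.50 and missed the threshold (limma adjusted p = 0.110), with 0.53 within slide 1 and 3.33 within slide 3.

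Fn1, fibronectin, rose by 1.60 ± 0.19, and Dcn, decorin, by 0.96 ± 0.13. Mmp2, which encodes the matrix protease gelatinase A, read 0.16, 0.62, 1.38 and 0.45 on the TG arrays and -0.86, -1.13, -1.55 and -1.88 on the WT arrays. These values were wholly apart, and the increase of 1.92 ± 0.21 (3.77-fold, limma adjusted p = 0.00251) was kept in each fit that left out 1 array. The 2 members below 0 were Bgn, biglycan, at -0.88 ± 0.26 and Loxl2, a collagen cross-linking enzyme, at -0.60 ± 0.17, and neither passed the test. Without TG cerulein 16 the calls of Postn, Lum, Col1a1, Col1a2, Fn1 and Dcn were lost, and all of these but Fn1 were lost without WT cerulein 10. Postn, Col1a1 and Col1a2 were also lost without TG cerulein 15, Col1a1 and Col1a2 without TG cerulein 14 or WT cerulein 12, and Col1a1 without WT cerulein 11. Without the slide term the adjusted p of Fn1 was 0.0516 and that of Dcn 0.312, and the other 5 stayed called.

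**Figure D3:**
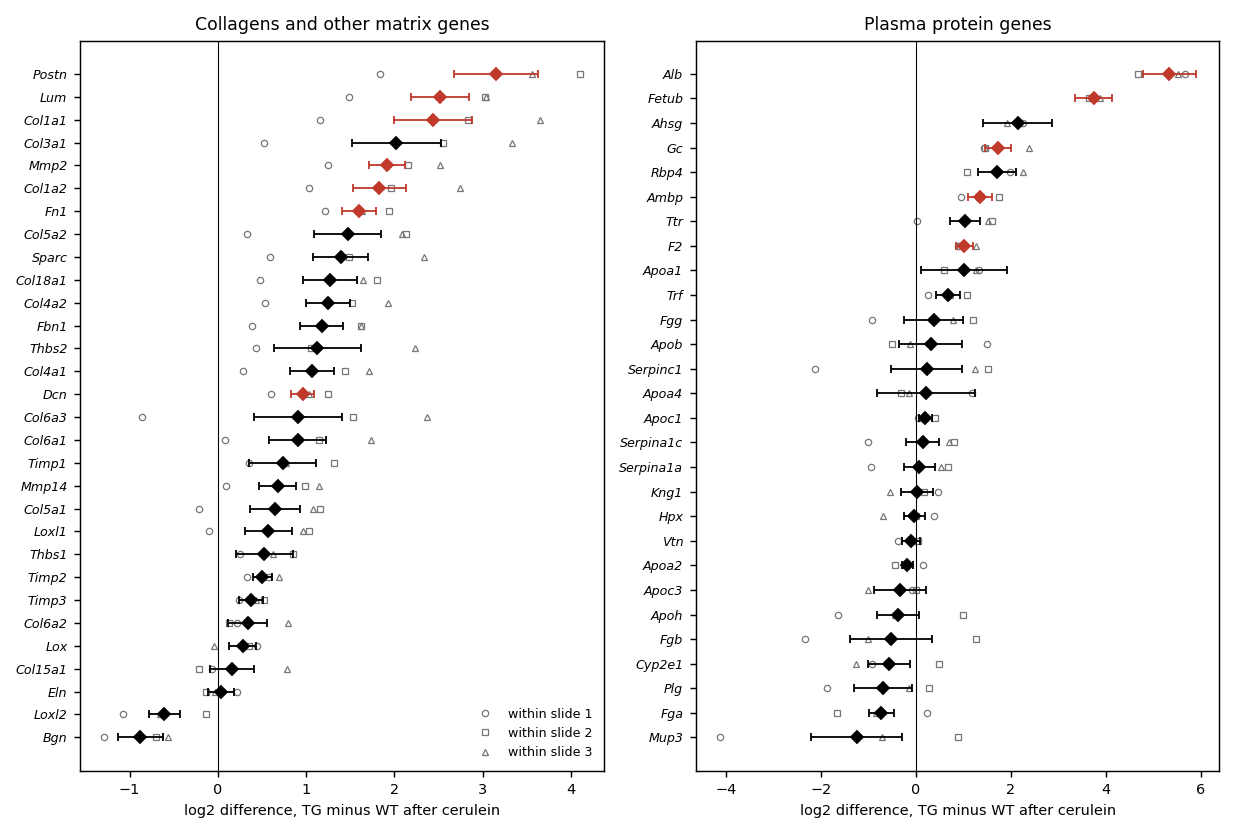
Log2 difference between TG and WT after cerulein for the 30 measured matrix genes (left) and the 28 measured plasma protein genes (right). Diamonds with bars give the fit with slide in the model and its SE, red where called, and open symbols the difference within each slide, on which each genotype has 1 or 2 arrays. Matrix genes lie almost all to the right of 0, with slide 1 nearest to 0, while the plasma protein genes spread from Alb at 5.33 to Mup3 at -1.25.

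Other genes of matrix and mesenchyme were called higher, although on no list. Frem1, a basement membrane-associated protein, and Col8a1, a short-chain collagen, were well above background on 3 of 4 TG and 0 of 4 WT cerulein arrays, and were at least 2.44-fold and at least 2.42-fold higher in TG mice. Mmp3, the protease stromelysin-1, was above background on 4 TG and 0 WT arrays and was at least 3.04-fold higher. Such a bound sets the mean of the bright group against the lowest signal that counts as above background on the dim arrays. It is approximate, because that lowest signal is taken over all probes. The TG means of Frem1 and Col8a1 also include an array not above background. Probes were kept if above background on at least 3 of 15 arrays. Frem1, Col8a1 and Mmp3 passed through TG arrays alone, so their counts above background are not independent of that filter. Cdh11, a cadherin of mesenchymal cells, and Cblif, the vitamin B12-binding intrinsic factor, were also called higher. For each, 4 of 4 TG but 1 of 4 WT arrays were above background, so the fitted differences of 3.11 ± 0.52 and 3.55 ± 0.63 rest largely on WT signal that was not measured above background. A second probe of Cdh11 differed by 0.37. All 5 were lost without TG cerulein 16, and all but Col8a1 without WT cerulein 10. Frem1, Cdh11 and Cblif were also lost without TG cerulein 15, Cdh11 and Cblif without TG cerulein 14, and Cblif without WT cerulein 11 or 12.

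Several genes with smaller differences had less spread, and were picked out here after their values were seen, because they stayed called in each of the 8 fits that left out 1 array. Mgp, matrix Gla protein, an inhibitor of calcification, read 5.02, 4.58, 5.02 and 4.35 on the TG arrays and 2.60, 3.07, 1.81 and 1.87 on the WT arrays. TG and WT were wholly apart, by 2.23 ± 0.15 (4.69-fold, limma adjusted p = 0.000178). Penk, proenkephalin, the precursor of opioid peptides, read 3.56, 3.66, 4.25 and 3.24 on the TG arrays and 1.88, 2.25, 1.63 and 0.87 on the WT arrays. It too was apart, by 1.90 ± 0.15 (3.72-fold, limma adjusted p = 0.000285). Lamc3, a laminin chain of basement membranes, rose by 2.10 ± 0.17, and Srpx, a sushi-repeat protein, by 2.32 ± 0.26. Srrm4, a splicing regulator known from neurons, was called higher too, but 1 of 4 WT arrays was above background for it, so that the size of its fitted difference (2.44 ± 0.18) rests largely on signal not measured above background.

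Of the called genes, 72 of the 89 higher and all 25 lower were on no list. Most genes were on none, since the lists held 668 of the 17338 genes tested. Of those not yet described, and chosen after their values were seen, several act on matrix: Pcolce, which enhances procollagen cleavage, rose by 1.63 ± 0.21, Pcolce2 by 1.08 ± 0.13, Ctsk, cathepsin K, by 1.54 ± 0.29, and Aebp1, a collagen-binding protein, by 1.29 ± 0.18. The laminin chains Lama2 and Lamb1 rose by 1.18 ± 0.16 and 1.18 ± 0.23. Fst, follistatin, which binds activins, rose by 1.59 ± 0.22, and Fzd1, a WNT receptor, by 1.62 ± 0.27. Ear1 and Ear2, eosinophil-associated ribonucleases so alike in sequence that probes may not separate them, rose by 1.38 ± 0.26 and 1.39 ± 0.22. Itih2, a heavy chain of the inter-alpha-trypsin inhibitor that is made in liver, rose by 1.11 ± 0.21 but was not on the plasma protein list. All calls in this paragraph were lost without TG cerulein 16, and all but that of Pcolce2 without WT cerulein 10. Ctsk, Lamb1, Ear1 and Itih2 stayed called in 2 of the 8 fits that left out 1 array. Without the slide term only Pcolce and Ear2 stayed called, and the limma adjusted p of the others was 0.0516 to 0.303. The TG and WT values of Pcolce2 and Lamb1 overlapped.

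Markers of fibroblasts and stellate cells moved less than the matrix genes. Of 15 measured, 2 were higher (against 0.513% of all genes) and 0 lower (against 0.144%). These were Pdgfra (1.29 ± 0.24, limma adjusted p = 0.0425) and Pdgfrb (1.17 ± 0.23, limma adjusted p = 0.0487), both PDGF receptors. For Pdgfra the TG arrays read 0.21, 0.64, 1.46 and 0.55 and the WT arrays -0.05, 0.05, -1.71 and -1.31, so the groups were apart with the widest gap on slide 2. Both calls were lost when any of 6 of the 8 arrays was left out, and without the slide term their adjusted p was 0.225 and 0.179. The other 13 did not pass, among them Fap, fibroblast activation protein, at 1.46 ± 0.34, Vim, vimentin, at 0.40 ± 0.26, Des, desmin, at 0.27 ± 0.37 and Acta2, smooth muscle actin of activated stellate cells, at 0.12 ± 0.23. The list median was 0.19. Its mean log2 signal was -0.29 to 0.17 on TG and -0.65 to 0.00 on WT arrays, and its part in the matrix increases was not tested.

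None of the tested genes of ERBB ligands, receptors and regulators was called, where 0.658% of all genes were. At that share 0 calls among 17 genes do not set the list apart. Btc read -3.30, -2.24, -1.80 and -2.17 on the TG cerulein arrays and -2.83, -1.81, -3.34 and -3.49 on the WT cerulein arrays. The groups overlapped, and the difference was 0.40 ± 0.47 (limma adjusted p = 0.736), at 0.06, 1.24 and 0.01 within slides 1, 2 and 3. The deposited files do not say where in the transcript the Btc probe lies, so its signal is no check of the TG label. Among the receptors, Egfr stood at 0.45 ± 0.27, Erbb2 at -0.29 ± 0.18 and Erbb3 at -0.42 ± 0.32, and none passed the test. Erbb4, the receptor named in the series title, was well above background on 1 of 15 arrays and on 0 of the 8 cerulein arrays, and was not tested. The ligands Areg (1 of 15), Ereg (2 of 15) and Nrg3 (0 of 15) were not tested either. Of the 8 cerulein arrays, 1, 1 and 0 were above background for them. Of the 21 genes of the list 17 were tested, with 0 called and a median of 0.04, equal to that of all genes at this rounding.

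ERK feedback genes are induced by and restrain the kinase cascade below these receptors. None of 14 tested was called (0 higher, 0 lower), against 0.658% of all genes. Differences were above 0 for 13 of 14, with a median of 0.58 against 0.04 over all genes. For 4 of them TG lay wholly above WT, against 1.57% of all genes: Dusp4 (1.66 ± 0.58), Etv5 (1.19 ± 0.33), Dusp6 (0.85 ± 0.21) and Etv1 (0.61 ± 0.13). Dusp4 and Dusp6 are phosphatases of ERK and Etv1 and Etv5 are transcription factors, and their limma adjusted p ranged from 0.0738 to 0.222. For Dusp4, WT cerulein 10 stood apart at -6.36, against -3.80 to -3.36 on the other WT arrays. The lowest TG value of Dusp4 was -3.28, so its groups were apart by a narrow margin. Margins were narrow for the others too. The lowest TG and highest WT values were 0.64 and 0.55 for Etv5, 0.68 and 0.58 for Dusp6, and -0.52 and -0.54 for Etv1.

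Of YAP and SRF target genes, 1 of 17 was higher (against 0.513% of all genes) and 0 lower (against 0.144%), with a median of 0.07. This was Ccn2, connective tissue growth factor, which read 2.31, 2.23, 2.59 and 2.001 on the TG arrays and 1.21, 1.51, 0.88 and 0.93 on the WT arrays. The groups were apart and the difference nearly equal on the 3 slides, at 1.07, 1.10 and 1.08. It was 1.06 ± 0.10 in the model (2.09-fold, limma adjusted p = 0.00147), while its close relative Ccn1 stood at -0.07 ± 0.43.

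Markers of other cell types gave 2 further calls. Over all genes, 0.658% were called in either direction. Gcg, the glucagon gene of islet alpha cells, read 4.93, 5.64, 6.34 and 5.12 on the TG arrays and 4.06, 4.65, 3.67 and 3.75 on the WT arrays. The groups were apart, by 1.41 ± 0.21 (2.66-fold, limma adjusted p = 0.0135, and 0.179 without the slide term). It was the 1 called gene of 24 islet genes measured, 21 of which had a difference above 0, with a median of 0.40. Ins1 and Ins2, the insulin genes, stood at 0.34 ± 0.15 and 0.28 ± 0.17, and the mean log2 signal of the list was 0.60 to 1.37 on TG and 0.16 to 0.77 on WT arrays. Camp, the neutrophil granule protein cathelicidin, rose by 1.02 ± 0.18 (limma adjusted p = 0.0297, and 0.248 without the slide term). It was 1 of 11 neutrophil genes measured. S100a8 and S100a9, the calprotectin subunits, stood at 1.91 ± 0.71 and 1.89 ± 0.79, and 6 of the 11 were above 0. The other 5 were below 0: Cxcr2 and Clec4d stood at -0.69 ± 0.53 and -0.49 ± 0.45, Elane at -0.33 ± 0.15, Fpr1 at -0.22 ± 0.23 and Csf3r at -0.02 ± 0.10. The list median was 0.84, and -0.12 over the members above background on all 15 arrays. Gcg was lost without TG cerulein 15, TG cerulein 16 or WT cerulein 10, and Camp without any of 6 arrays.

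The lists of acinar genes and of immediate early, stress and cytokine genes held no called gene between genotypes. Over all genes, 0.658% were called. Of 29 digestive enzymes and acinar secretory products 0 were called, with 28 differences below 0 and a median of -0.29. Cpa1, carboxypeptidase A1, stood at -0.30 ± 0.11, the amylase gene Amy2a5 at -0.34 ± 0.11 and the lipase gene Pnlip at -0.34 ± 0.12. These are among the brightest probes of the arrays, and several are close paralogues that probes may not separate. Acinar transcription factors (13 tested, median 0.16), immediate early genes (32, -0.03), integrated stress response genes (22, 0.10), heat shock proteins (16, 0.08) and cytokines, chemokines and NF-kB targets (28, 0.17) had 0 calls each. Il6 stood at 0.17 ± 0.43, Cxcl1 at 0.27 ± 0.27 and Atf3 at -0.16 ± 0.22. Of 26 ER chaperones and ER degradation factors, 25 had a difference above 0 with a median of 0.31, and 0 were called. The nearest was Pdia4, a disulphide isomerase, at 0.99 ± 0.25 (limma adjusted p = 0.114).

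**Figure D4:**
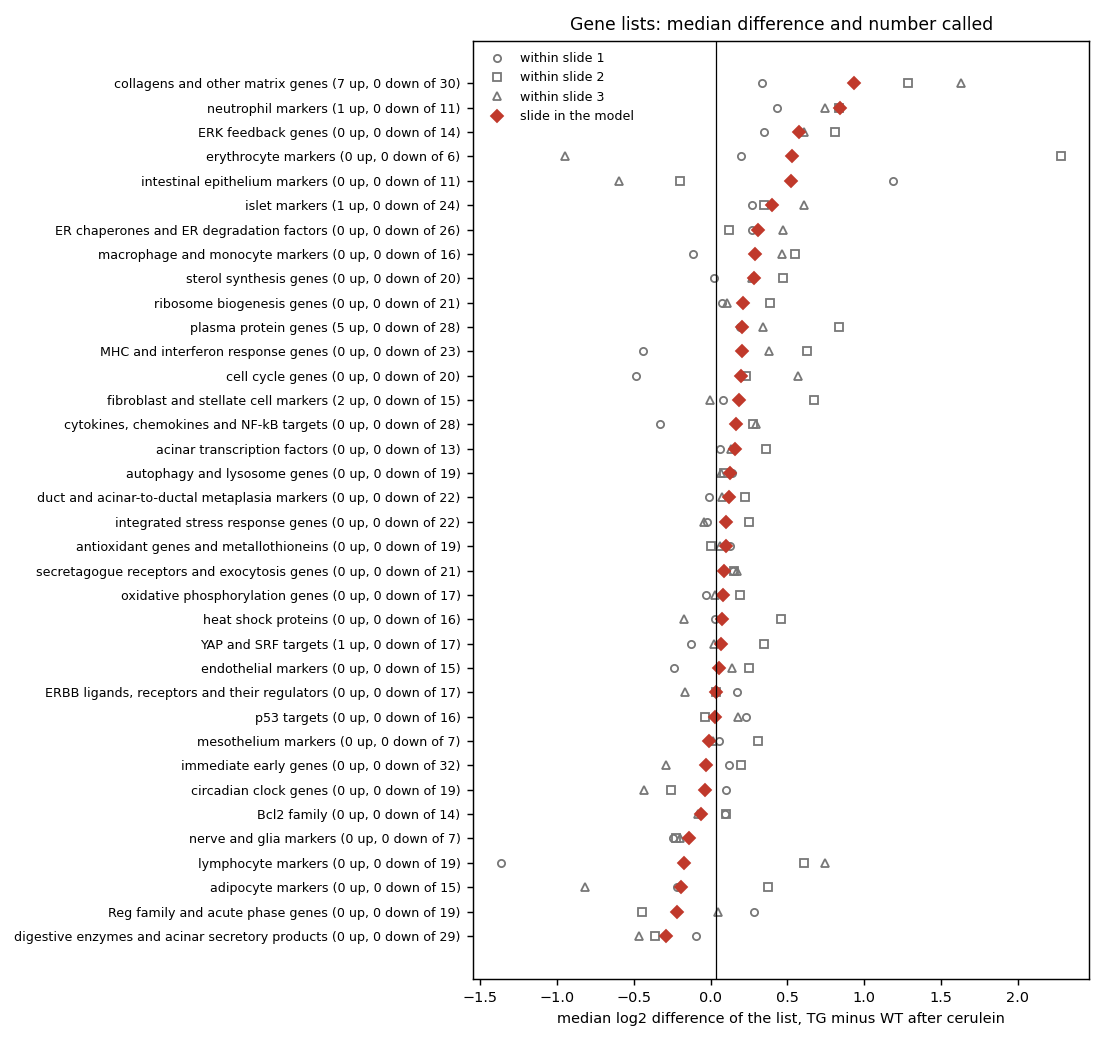
Median log2 difference between TG and WT after cerulein over the measured members of each of 36 gene lists. Red diamonds come from the fit with slide in the model, open symbols from the difference within each slide, and the vertical line marks the median of all genes at 0.04. The number of members called in each direction follows each name. Matrix genes stand highest at 0.93, and the medians of the erythrocyte and lymphocyte markers differ most between slides.

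The decreases were smaller. None was on a list, but the lists held only 668 of the 17338 genes tested. Ptch1, the receptor and target gene of Hedgehog signals, read -4.24, -4.19, -5.46 and -3.85 on TG cerulein 13 to 16 and -2.94, -3.86, -2.41 and -1.996 on WT cerulein 9 to 12. The 4 TG and 4 WT values overlapped across slides, TG cerulein 16 just above WT cerulein 10, but within each slide TG was lower. The gene was above background on 2 of 4 TG and 4 of 4 WT arrays, so the size of the difference depends in part on unmeasured TG signal. With slide in the model it was -1.49 ± 0.22 (limma adjusted p = 0.0135), and without slide the adjusted p was 0.273. Cxcl14, a chemokine of epithelia, read -1.19, -0.97, -0.32 and -1.11 on the TG arrays and 0.32, 0.59, -0.40 and -0.23 on the WT arrays. Here too the overlap was between slides, and the difference was -1.07 ± 0.15 (limma adjusted p = 0.00917, and 0.231 without the slide term).

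Slc27a5, an enzyme of bile acid and fatty acid activation, fell by 1.14 ± 0.21 on the log2 scale, and Zfp398, a zinc finger protein, by 1.31 ± 0.22. Their groups were apart by small margins. Astn1, a neuronal membrane protein, was above background on 0 of 4 TG and 3 of 4 WT arrays and was at least 1.36-fold lower. The olfactory receptor gene Olfr707 gave the same numbers of arrays and was at least 1.83-fold lower. Both folds are approximate bounds of the kind given above, and both genes passed the filter on dim probes through WT arrays alone. The remaining genes among the 10 largest decreases were Tex46, Ttll9, a tubulin tyrosine ligase-like protein (-1.05 ± 0.20), Frmpd1 (-1.05 ± 0.20, above background on 3 of 4 TG arrays) and the olfactory receptor gene Olfr1350 (-0.94 ± 0.18). Tex46 was above background on 1 of 4 TG and 2 of 4 WT arrays, so its fitted difference of -1.45 ± 0.27 is mostly between signals not measured above background. A second probe of Ttll9 differed by 0.22 in the opposite direction. Of the 114 called genes 23 had several probes, and for 4 of these, Ttll9, Col16a1, Evc2 and Trio, another probe had the opposite sign. The RIKEN transcript 1810007D17Rik, outside the rule for named genes, had the largest decrease at -2.25 ± 0.35. No decrease stayed called in all 8 fits that left out 1 array. Without WT cerulein 10 all decreases were lost, and without TG cerulein 16 all but that of Cxcl14. Astn1 alone among all 25 was called without the slide term (limma adjusted p = 0.0467).

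The saline arrays show whether the genotypes differed without cerulein. They share no array with the cerulein comparison, although one model gave both their spread and slide terms. After saline 39 genes were higher in TG mice (0.225%) and 1 was lower (0.00577%), from 3 and 4 arrays. Of the 89 genes higher after cerulein, 25 were also called higher after saline, which is 28.1% of the 89 and 64.1% of the 39. The saline difference was above 0 for 88 of the 89, with a median of 0.84 against 1.12 after cerulein. It was below 0 for 24 of the 25 lower genes, with a median of -0.46 against -0.90. The genes were selected on their difference after cerulein, which enlarges the cerulein medians and not the saline medians. These medians therefore do not compare the treatments.

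Serpina6 exceeded WT by 7.11 ± 0.47 after saline and 5.92 ± 0.45 after cerulein, Alb by 5.34 ± 0.58 and 5.33 ± 0.55, and Fetub by 3.04 ± 0.41 and 3.74 ± 0.40. Among matrix genes Mgp stood at 2.20 ± 0.16 and 2.23 ± 0.15, whereas Col1a1 stood at 1.18 ± 0.46 (not called) and 2.44 ± 0.44, and Postn at 2.33 ± 0.49 (not called) and 3.15 ± 0.47. Being called after one treatment and not the other does not show a difference between treatments. The test of that difference, the interaction of genotype with cerulein, called 1 gene (0.00577%), with 414 at an unadjusted p below 0.05. For Serpina6, Alb, Fetub, Postn, Col1a1 and Mgp its estimate was -1.19 ± 0.64, -0.01 ± 0.80, 0.70 ± 0.57, 0.82 ± 0.68, 1.26 ± 0.63 and 0.03 ± 0.22, all with a limma adjusted p above the threshold. The 1 called gene was Alox12e, an epidermal-type lipoxygenase, which stood at 0.79 ± 0.09 after saline and -0.33 ± 0.09 after cerulein, an interaction of -1.12 ± 0.13 (limma adjusted p = 0.0370). No gene was called for the interaction without the slide term, with slide as a random block, with normexp, quantile or array median normalization, or without the filter on dim probes (0 calls, with 134 to 510 genes at an unadjusted p below 0.05 in limma).

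**Figure D5:**
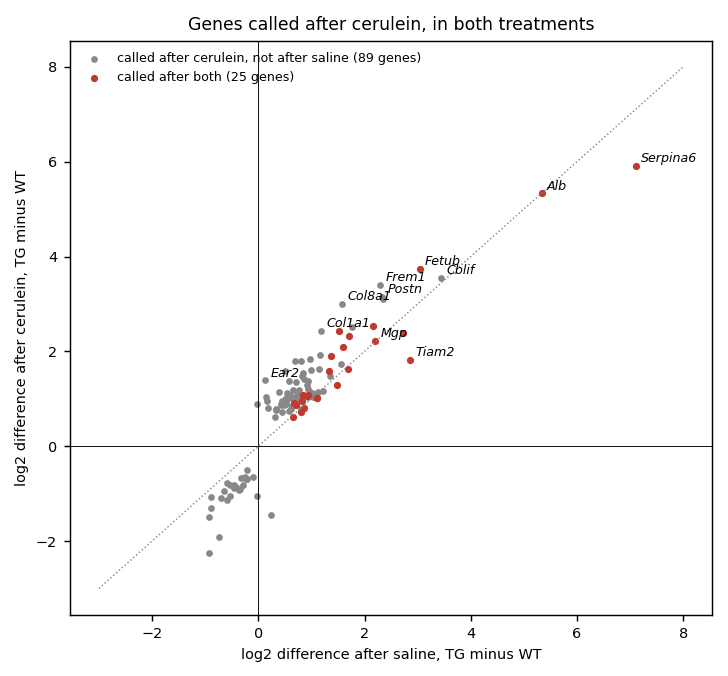
Log2 difference between TG and WT after saline (horizontal) and after cerulein (vertical) for the 114 genes called after cerulein. Red points are the 25 also called after saline, grey points the other 89, and the dotted line marks equal differences. Nearly all points have the same sign on both axes, and Serpina6, Alb and Fetub stand far out in both treatments.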

How the data were processed

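Total RNA of whole pancreas was hybridised to 1-colour Agilent arrays, 1 mouse per array. Per the submitters' processing notes, Agilent Feature Extraction 10.7.3.1 read the spots. The deposited processed signals are intensity values that this program had background-subtracted and spatially detrended within each array, per the file headers, and the deposited flags for background, saturation and outliers are a unit of their own (other, 0 or 1 per spot). The authors' series table holds log2 values that they had normalised in a way not given in the sources used here, and served as an alternative. Its scale is log2, and its centring between arrays stays unknown.

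From the 59305 non-control spots, 55681 probes were averaged after outlier-flagged spots were left out. No spot was saturated. From each log2 signal the 75th percentile of its array was subtracted. Probes well above background on at least 3 of 15 arrays were kept. Accessions matched a RefSeq table (GRCm38.p6) for 27235 probes, and 28446 stayed unnamed. The brightest kept probe stood for each of 17338 genes. Where a gene had a flagged spot on an array, that array's value was missing for it (21 genes). The number of arrays limits the precision.

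The comparison used limma 3.58.1 (R 4.3.3, with the data.table package, version 1.17.8): lmFit and eBayes on 4 group means and a fixed slide term over all 15 arrays (9 residual and 2.26 prior degrees of freedom), two-sided, Benjamini-Hochberg over all genes, called at an adjusted p below 0.05. Errors of differences are SE. The procedure was tested on simulated data. Figures were drawn with matplotlib 3.10.9 in Python 3.11.15 (pandas 2.3.3, numpy 2.4.6). Slides were read from the file naming and match the ends of the array barcodes. Each slide was scanned once, on 2 days in all. Nothing says whether littermates were used, and p-values measure the spread between these mice.

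The 36 gene lists (728 names, 700 on the array, 668 tested) and the rule for named genes were chosen with earlier results of these data known, so lists are given by counts and medians without a test. Named genes are the 10 largest increases and the 10 largest decreases with an official symbol and the same sign on all slides, the called members of each list if 3 or fewer and otherwise the 2 with the largest difference, Btc and the ERBB receptors, genes called in the interaction, and the 5 largest differences called after both treatments. Others were chosen after their values were seen. Normexp (offset 50) was run on the median spot signal.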

Additional observations from a re-analysis of the deposited data

Results flagged for a closer look

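For Tex46, TG cerulein 16, the 1 of 4 TG cerulein arrays on which its probe was well above background, read -4.42, apart from the other 3 TG cerulein arrays at -6.54 to -6.26, and its gap to them was 0.868 of the group's range, more than a test for 1 outlying array among 4 allows. The other 3 values were not measured above background, so they have no order and the gap has no measured size. It was 1 of 62 groups of named genes examined, and chance marks about 1 in 20. That array lay on slide 2, where both WT cerulein arrays also read highest for the gene.

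Alox12e was the 1 gene whose genotype difference depended on cerulein in limma. Its difference between TG and WT after cerulein minus that after saline was -1.12 on the log2 scale. No gene was called (0) without the slide term, with slide as a random block, with normexp, quantile or array median normalization, or without the filter on dim probes, with 134 to 510 genes at an unadjusted p below 0.05.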

How the results depend on the processing

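No paired analysis was possible because the animal numbers of the labels are not shared between groups. Counts below are genes higher and lower in TG mice after cerulein, 89 and 25 as reported. They were 24 and 1 without the slide term (no replicate block), 138 and 39 with slide as a random block, 5 and 0 from the 8 cerulein arrays alone (1733 at an unadjusted p below 0.05 in limma, 896 of them lower), 168 and 116 with normexp, 116 and 14 with the array median, 116 and 41 with probes above background on all 15 arrays, 71 and 13 with the mean of a gene's probes, and 183 and 44 with array weights. Leaving out 1 array gave 11 to 185 and 0 to 39 (743 lower at an unadjusted p below 0.05 where it was 0). Without slide 2 they were 11 and 1, and without slide 3 they were 0 and 0 (403 and 421 at an unadjusted p below 0.05). Of the calls 78.1% were higher as reported, 96.0% without the slide term, 59.2% with normexp and 89.2% with the array median, which moved the median of all genes to 0.10. Of the 114 genes, 113 kept their sign in every setting that tested them, and 10 stayed called whichever array was left out. After saline 13 and 0 genes were called without the slide term (104 lower at an unadjusted p below 0.05). The interaction had 0 calls without the slide term (134 at an unadjusted p below 0.05), with the random block (400), normexp (504), quantile normalization (459), the array median (501) and no filter (510), and 1 under the other 4.

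Without TG cerulein 16 or without slide 2, Btc stood at -0.078, Egfr at -0.024 and Erbb2 at 0.025, the ends farthest from their reported signs of ranges that reached 0.77, 0.70 and -0.50 over the arrays left out. List medians moved beyond their spread as follows: ERBB genes to -0.16 within slide 3; ERK feedback genes to 0.33 with normexp; digestive enzymes to -0.15 without the slide term, -0.023 with quantile normalization, -0.42 without slide 1, and -0.092 and -0.47 within slides 1 and 3; plasma protein genes to 0.84 within slide 2; matrix genes to 1.48 without slide 1, and 0.34 and 1.63 within slides 1 and 3; fibroblast markers to 0.67 within slide 2; YAP and SRF targets to -0.13 and 0.35 within slides 1 and 2; islet markers to 0.27 and 0.61 within slides 1 and 3. Neutrophil markers went to 0.21 with normexp, 0.28 with no filter, -0.12 with probes above background on all 15 arrays, 0.59 without slide 2, 0.43 within slide 1, and 0.58 to 0.99 with 1 array left out. The causes were not tested. Probes below background give approximate bounds only.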
